A study of Homo sapiens with 4 samples.

Results

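The 83 genes described here are those of the cytosolic ribosomal proteins, taken from 20037 protein-coding genes on the 22 autosomes, X and Y. They were chosen by name, as RefSeq symbols that begin with RPL or RPS and a number, plus RPLP0, RPLP1, RPLP2 and RPSA, with the S6 kinases and the paralogues whose symbols end in L, L1 or L2 left out. Of the 83, 46 encode proteins of the large subunit and 31 of the small subunit. The other 6 are 3 readthrough genes (RPS10-NUDT3, RPL17-C18orf32 and RPL36A-HNRNPH2), the Y-linked RPS4Y1 and RPS4Y2, and RPS19BP1, which encodes a binding partner of RPS19 and no ribosomal protein.

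The study mapped the binding of the transcription factor IRF3 by ChIP-seq in MM1.S, an established human myeloma cell line, in untreated cells kept in RPMI medium with serum. The series had 4 libraries, namely 2 IRF3 ChIP libraries and the 2 input libraries, with neither a treated group nor a second antibody. Whether the replicates were separate cultures is not stated, and their spread may be only technical. Peak calling used 38568845 and 46474586 ChIP tags against 58025919 and 60348415 input tags, and gave 41880 peaks in replicate 1 and 41666 in replicate 2.

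A ribosome is built from ribosomal RNA and a fixed set of proteins made in near-equal amounts, so their genes, scattered over the genome, are among the most evenly and highly transcribed genes of a growing cell. Their start sites are known to lie in a run of pyrimidines, the feature behind the 5′ terminal oligopyrimidine tract that lets the mTOR pathway control translation of these messages. IRF3 is best known for activating interferon beta and antiviral genes after a virus is sensed. Myeloma cells are malignant plasma cells that secrete antibody and depend on high protein synthesis.

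Promoter sequences were found for 66 of the 83 genes in RefSeq (GRCh38.p14), and a few are shown to let the reader see what lies at the annotated starts. The first set holds 250 bases before to 20 bases after the start of the genes with the strongest regions, RPLP1 (chr15:69452568-69452837, plus strand) and RPL3 (chr22:39319604-39319873, minus strand), and of the gene with the weakest, RPL22 (chr1:6199576-6199845, minus strand). Capitals mark every match to the motifs searched.
RPLP1: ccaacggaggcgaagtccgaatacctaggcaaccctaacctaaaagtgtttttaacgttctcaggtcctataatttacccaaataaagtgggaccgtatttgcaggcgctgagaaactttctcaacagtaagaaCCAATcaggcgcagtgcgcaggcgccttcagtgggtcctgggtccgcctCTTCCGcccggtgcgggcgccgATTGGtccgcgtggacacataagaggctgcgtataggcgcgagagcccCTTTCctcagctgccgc
RPL3: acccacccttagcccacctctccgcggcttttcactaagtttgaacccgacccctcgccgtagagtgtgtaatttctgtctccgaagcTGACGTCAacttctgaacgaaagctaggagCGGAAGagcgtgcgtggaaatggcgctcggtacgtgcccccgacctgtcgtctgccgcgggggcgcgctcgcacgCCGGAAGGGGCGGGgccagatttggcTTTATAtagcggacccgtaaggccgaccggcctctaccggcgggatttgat
RPL22: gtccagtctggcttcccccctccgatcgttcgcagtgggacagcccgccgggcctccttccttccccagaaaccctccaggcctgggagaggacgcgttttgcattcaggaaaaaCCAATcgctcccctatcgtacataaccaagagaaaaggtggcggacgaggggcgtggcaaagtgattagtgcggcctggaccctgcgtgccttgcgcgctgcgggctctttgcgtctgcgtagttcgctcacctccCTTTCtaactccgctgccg
The capitals in RPLP1 are a pair of CCAAT boxes at positions -116 and -45 (the start being 0), an ETS-type CGGAAG on the other strand at -67 and the pyrimidine sequence CTTTC at 3. RPL3 had CGGAAG at -132 and -56, a CRE-type TGACGTCA at -162, GGGCGGG at -50 and a TATAAA match on the other strand at -31. RPL22 had a CCAAT box at -135 and CTTTC at 1. None of these 3 stretches held either IRF-type motif searched, the interferon response core (GAAA, any 2 bases, GAAA) or the ETS-IRF composite (GGAA, any 2 bases, GAAA).

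The second set shows the 30 bases before and 20 bases from the start of further genes with strong regions (RPS4X, RPLP0, RPL12 and RPS12) and then of genes with weak ones (RPS14, RPL34, RPS19, RPL32 and RPL21). Here capitals mark CTTTC with its first base within 5 bases of the start.
RPS4X (chrX:72277229-72277278, minus strand): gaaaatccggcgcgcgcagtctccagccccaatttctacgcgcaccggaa
RPLP0 (chr12:120201092-120201141, minus strand): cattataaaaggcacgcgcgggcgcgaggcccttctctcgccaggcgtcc
RPL12 (chr9:127451387-127451436, minus strand): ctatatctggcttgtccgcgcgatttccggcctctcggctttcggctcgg
RPS12 (chr6:132814539-132814588, plus strand): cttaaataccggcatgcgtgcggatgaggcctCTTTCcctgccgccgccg
RPS14 (chr5:150449720-150449769, minus strand): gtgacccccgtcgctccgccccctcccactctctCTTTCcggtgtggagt
RPL34 (chr4:108620546-108620595, plus strand): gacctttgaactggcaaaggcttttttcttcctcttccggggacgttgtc
RPS19 (chr19:41860225-41860274, plus strand): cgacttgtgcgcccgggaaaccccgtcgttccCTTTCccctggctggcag
RPL32 (chr3:12841546-12841595, minus strand): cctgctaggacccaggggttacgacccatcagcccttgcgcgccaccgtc
RPL21 (chr13:27251528-27251577, plus strand): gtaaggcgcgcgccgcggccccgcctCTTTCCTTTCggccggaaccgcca
CTTTC stood at the start of strong and weak genes alike. In the promoter table, readthrough genes included, it was found on the gene strand in 25 of 66 members (37.9%), in 2.80% of the 8294 occupied protein-coding genes with a promoter entry and in 2.42% of all 15843 such genes. The 25 members with it had a median strength percentile of 96.1 and the 39 occupied members without it 94.96, a scale on which 100 is the strongest of the occupied genes by fold enrichment. Median fold enrichment was 12.3 with it and 13.7 without it in replicate 1, and 22.4 and 20.1 in replicate 2. The order thus differed between the replicates, and the difference was not tested.

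IRF-type motifs were found in few members. The interferon response core was searched on both strands of the 300 bases and was found in 5 of 66 members (7.58%), in 2.95% of occupied genes and in 3.17% of all genes. Of these 5, 4 were occupied and had median fold enrichments of 15.8 (replicate 1) and 27.2 (the other replicate), against 13.3 and 21.1 in the 60 occupied members without it. These 4 matches are shown in capitals with their flanks.
RPL29 (chr3:51996098-51996137, minus strand): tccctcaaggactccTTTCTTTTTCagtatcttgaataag
RPS12 (chr6:132814437-132814476, plus strand): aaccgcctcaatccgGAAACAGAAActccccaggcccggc
RPS16 (chr19:39435928-39435967, minus strand): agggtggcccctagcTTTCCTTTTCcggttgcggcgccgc
RPS9 (chr19:54200608-54200639, plus strand): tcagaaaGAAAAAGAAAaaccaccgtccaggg
The match in RPS16 lay at position -3, inside the pyrimidine run of the start, on the other strand. Those of RPS12 (-117), RPL29 (-227) and RPS9 (-243) lay upstream, and the match in RPS9 falls in a run of A and G bases. The ETS-IRF composite was found in 4 of 66 members (RPL11, RPL29, RPS27A and RPS4Y2, 6.06%), in 2.79% of occupied genes and in 2.50% of all genes. Its 3 occupied carriers had lower median fold enrichments, 10.4 and 16.5, against 13.7 and 21.5 in the 61 occupied members without it. Carriers of the IRF-type motifs were thus stronger for the interferon response core and weaker for the composite, and neither difference was tested. A match here is a string of letters in a window, and says nothing by itself of binding. The window is the first promoter entry of a gene, which need not lie under its peak. At RPS27A the composite lay between 55231799 and 55231838 on chromosome 2, before both peaks, which began at 55232004 and 55232349. The summits of RPL6 lay at -7359 and -7353 bp from the nearest start in the promoter table.

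Other promoter letters differed in share too. CCGGAAG, an ETS-type motif, was found on either strand in 31.8% of members, 22.2% of occupied genes and 14.2% of all genes. The 21 members with CCGGAAG had a median percentile of 93.8, against 96.2 in the 43 occupied members without it. The shorter CGGAAG, which lies within CCGGAAG and was added after the sequences were seen, gave 63.6% of members, 37.3% of occupied genes and 25.6% of all genes. Its 40 occupied member carriers had a median percentile of 96.1, against 94.95 in the 24 without it. Neither difference was tested. GGGCGGG, the box of SP and KLF factors, went the other way, with 25.8% of members, 55.1% of occupied genes and 44.4% of all genes. The E-box CACGTG stood in 4.55% of members, 11.0% of occupied genes and 8.88% of all genes. Shares lay closer together for CCAAT, with 33.3% of members, 37.6% of occupied genes and 36.4% of all genes, and for TATAAA, with 7.58% of members, 5.56% of occupied genes and 9.63% of all genes. AAGATGG, the core of the YY1 site, was in 12.1% of members, 8.42% of occupied genes and 6.40% of all genes. The palindromic NRF1 site was found in 1 member (RPL10A, 1.52%), in 2.82% of occupied genes and in 1.75% of all genes. TGACGTCA was in 3 members (4.55%), in 3.48% of occupied genes and in 2.59% of all genes. The AP-1 site TGANTCA was in 3 members (4.55%), the unoccupied RPS4Y2 among them, in 3.95% of occupied genes and in 5.75% of all genes. Median GC content was 58.5% in members, 65.3% in occupied genes and 62.7% in all genes.

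IRF3 peaks lay at nearly every ribosomal protein gene. A gene was called occupied when both replicates had a peak with its summit within 1 kb of either end of the gene and the peaks overlapped. By this rule 81 of 83 genes were occupied (97.6%, exact 95% binomial interval 91.6 to 99.7%, counting error only), against 49.8% of all protein-coding genes (9978 of 20037). All 77 ribosomal protein genes proper on the autosomes and X were among them. The 2 without a peak were RPS4Y1 and RPS4Y2, the paralogues of RPS4X, both on the Y chromosome. Whether these cells carry a Y chromosome was not tested, so the missing peaks cannot be read as absence of binding at a gene that is present. With the Y chromosome genes left out, 81 of 81 members were occupied. The occupied members lay on 21 of the 24 chromosomes.

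The count stayed at 81 of 83 in several settings that changed the share of all genes. With a fold enrichment of at least 5 required in both replicates, 97.6% of members were occupied, against 28.4% of all protein-coding genes. At a −log10 q of at least 10 the shares were 97.6% of members and 43.9% of all genes. From replicate 2 alone, without replicate 1, 81 members and 55.2% of all genes were occupied, and from replicate 1 alone 81 members and 51.4%. Members also numbered 81 where the peaks had to overlap by at least 50% of the shorter (49.7% of all genes). Within 500 bp, 78 members (94.0%) and 44.4% of all genes were occupied, and with each peak given only to its nearest gene 78 members and 42.9%. At 5 kb the count was 81 again, against 58.8% of all genes. Among mitochondrial ribosomal protein genes 73 of 77 were occupied within 1 kb (94.8%) and 56 (72.7%) when fold enrichment had to reach 5, and among translation factor genes 59 of 69 (85.5%) and 50 (72.5%). Translation factor genes were also taken by symbol, and symbols ending in L or L1, left out of the members, were kept here. The unoccupied ones were EEF1A2, EIF1AY, EIF2S3B, EIF3C, EIF3CL, EIF4E3, EIF4EBP3, EIF4ENIF1, EIF5AL1 and EIF5B.

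**Figure D1:**
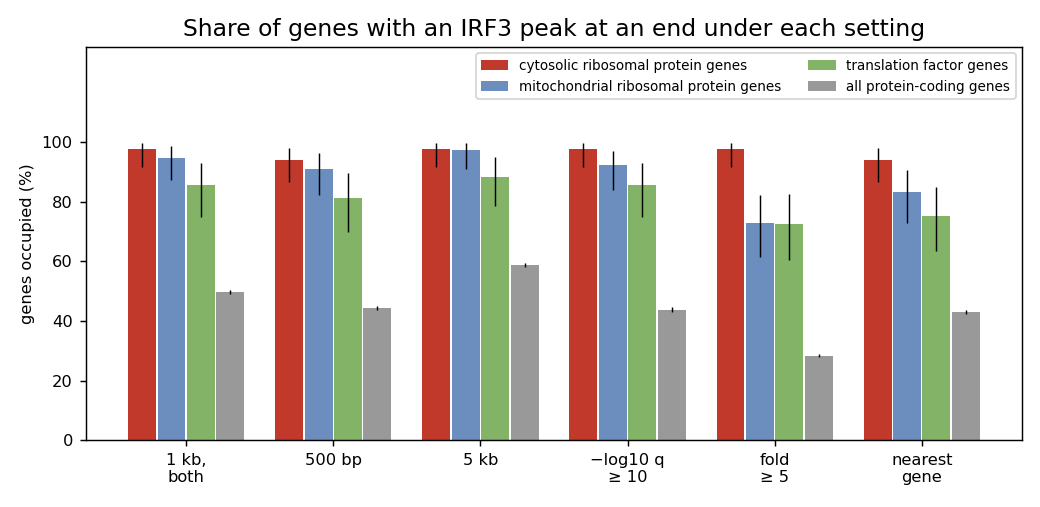
Share of genes (%) with an IRF3 peak at an end in both replicates, for cytosolic ribosomal protein genes, mitochondrial ribosomal protein genes, translation factor genes and all protein-coding genes, under 6 settings; lines are exact 95% binomial intervals. The cytosolic ribosomal protein genes stay at 94.0% or above in each setting shown, while all protein-coding genes range between 28.4% and 58.8%.

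The regions at these genes were strong as well as frequent. Fold enrichment, the authors' own value for each peak, is the ChIP pileup over the local input background. Paired values of it are given for replicate 1 and then replicate 2. At the 81 occupied members replicate 1 had a median of 12.6, with quartiles of 9.69 and 16.7. Replicate 2 had a median of 20.9, with quartiles of 15.9 and 28.1. At all 9978 occupied genes it was 5.56 (4.07 and 7.55) and 8.51 (6.01 and 12.0). In both replicates, then, the lower quartile of the members lay above the upper quartile of the occupied genes. The height of stacked fragments gave the same picture, with a median of 267 and 236 at members and 108 and 94 at all occupied genes.

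For a single scale, each occupied gene was ranked by the worse of its 2 ranks for fold enrichment among the peaks of each list, and its strength percentile is its place among the 9978 occupied genes, 100 being the strongest. The members had a median percentile of 94.96 (quartiles 89.8 and 97.9), and the lowest was 50.8. Of the 81, 39 (48.1%) were among the strongest 5% of occupied genes and 59 (72.8%) among the strongest 10%. No occupied member had a percentile below 50. A fold enrichment of at least 10 in both replicates was reached by 58 members (71.6%) and by 9.99% of all occupied genes.

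By their medians, other lists tied to translation lay between the members and all occupied genes. Occupied mitochondrial ribosomal protein genes had a median percentile of 64.0 (quartiles 44.4 and 78.9) and median fold enrichments of 6.43 and 8.98, and 2 of 73 were among the strongest 5%. Occupied translation factor genes had a median percentile of 73.2 (61.2 and 90.4) and median fold enrichments of 7.22 and 10.3, with 11 of 59 among the strongest 5%. The 9 occupied ribosome partner genes lay close to the members, with a median percentile of 92.98, and 4 of them (44.4%) were among the strongest 5% and 6 (66.7%) among the strongest 10%. These lists are described side by side, and the differences between them were not tested.

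**Figure D2:**
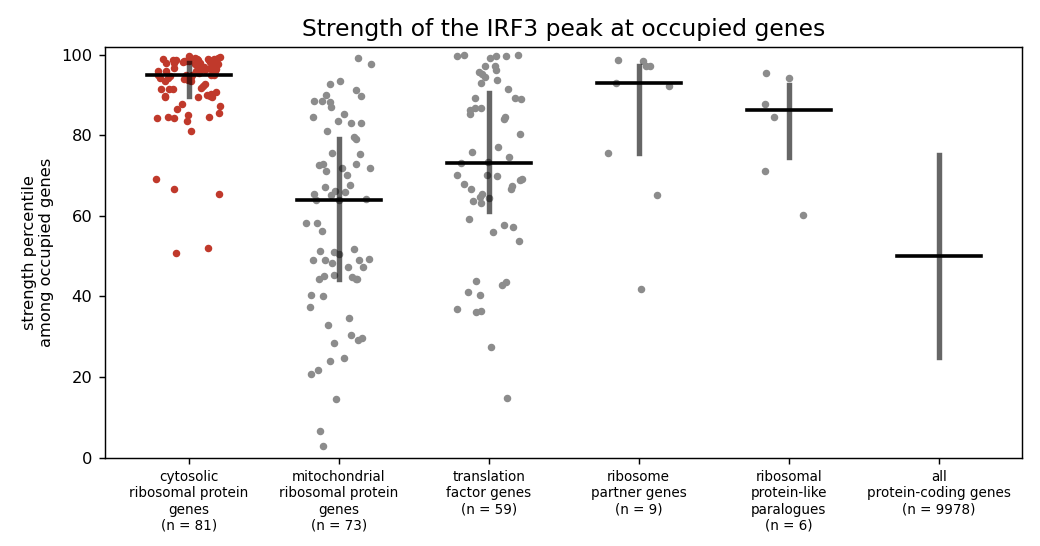
Strength percentile of each occupied gene (points, 100 the strongest of 9978 occupied genes) by gene list, with the median (horizontal bar) and quartiles (thick vertical bar); single points are not drawn for all protein-coding genes. The cytosolic ribosomal protein genes crowd near the top, with a median of 94.96 and none under 50.8.

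The strongest region of any member belonged to RPLP1, which encodes an acidic protein of the stalk that recruits translation factors to the large subunit. It had a fold enrichment of 30.4 in replicate 1 and 41.9 in replicate 2, with peaks on chromosome 15 from 69451914 to 69453759 and from 69451712 to 69454030. RPL3, which reaches toward the peptidyl transferase centre, had 21.3 and 75.5 (chromosome 22, 39319131 to 39320450 and 39318756 to 39320554), the highest value of any member in replicate 2 and the highest pileups, 701 and 717. RPLP0, the scaffold of the stalk, followed the same uneven pattern with 20.1 and 57.5. RPL12, at the base of the stalk, had 20.5 and 34.1. RPLP2, the partner of RPLP1, was lower than these with 10.2 and 17.2, at percentile 92.8.

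Among the rest of the 15 members ranked highest, genes of both subunits were mixed. RPS4X had 20.3 and 39.2. RPS12, a protein of the small subunit head, had 21.1 and 33.0. The values at RPL36 were 19.98 and 33.0, and RPS9, at the channel where messenger RNA enters, had 19.1 and 47.3. These genes differed little in replicate 1 and more in replicate 2. RPL36A had 18.8 and 37.0, RPS20 19.3 and 31.2, RPS27 17.6 and 36.5, and RPL8, near the catalytic centre, 17.5 and 39.2. RPL13 had 17.4 and 29.7, and RPL10, which joins the large subunit late in its maturation, had 16.9 and 34.5.

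The 10 occupied members with the weakest regions lay at percentiles of 50.8 to 84.4. RPL22, an RNA-binding protein with a role in T cell development, had 5.35 and 10.8 at percentile 50.8 (chromosome 1, 6199245 to 6199873 in replicate 1). RPL21 had 5.42 and 15.5 and RPL30 6.24 and 12.9. RPS19BP1, the gene that encodes no ribosomal protein, had 6.34 and 10.6, the lowest fold enrichment of any member in replicate 2. Small subunit genes here included RPS2, with 6.51 and 14.3, RPS19, with 8.01 and 15.3, and RPS14, the gene lost in the 5q- syndrome, with 10.5 and 11.7. RPL32 had 7.64 and 15.1, and RPL34 8.11 and 14.3. In replicate 1, RPL21 and RPL22 alone lay below the 5.56 median of occupied genes, and in replicate 2 no member lay below the 8.51 median.

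The 56 members between these ends ranged from 8.25 to 21.0 in replicate 1 and from 11.7 to 34.9 in replicate 2, at percentiles of 84.5 to 98.4.

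**Figure D3:**
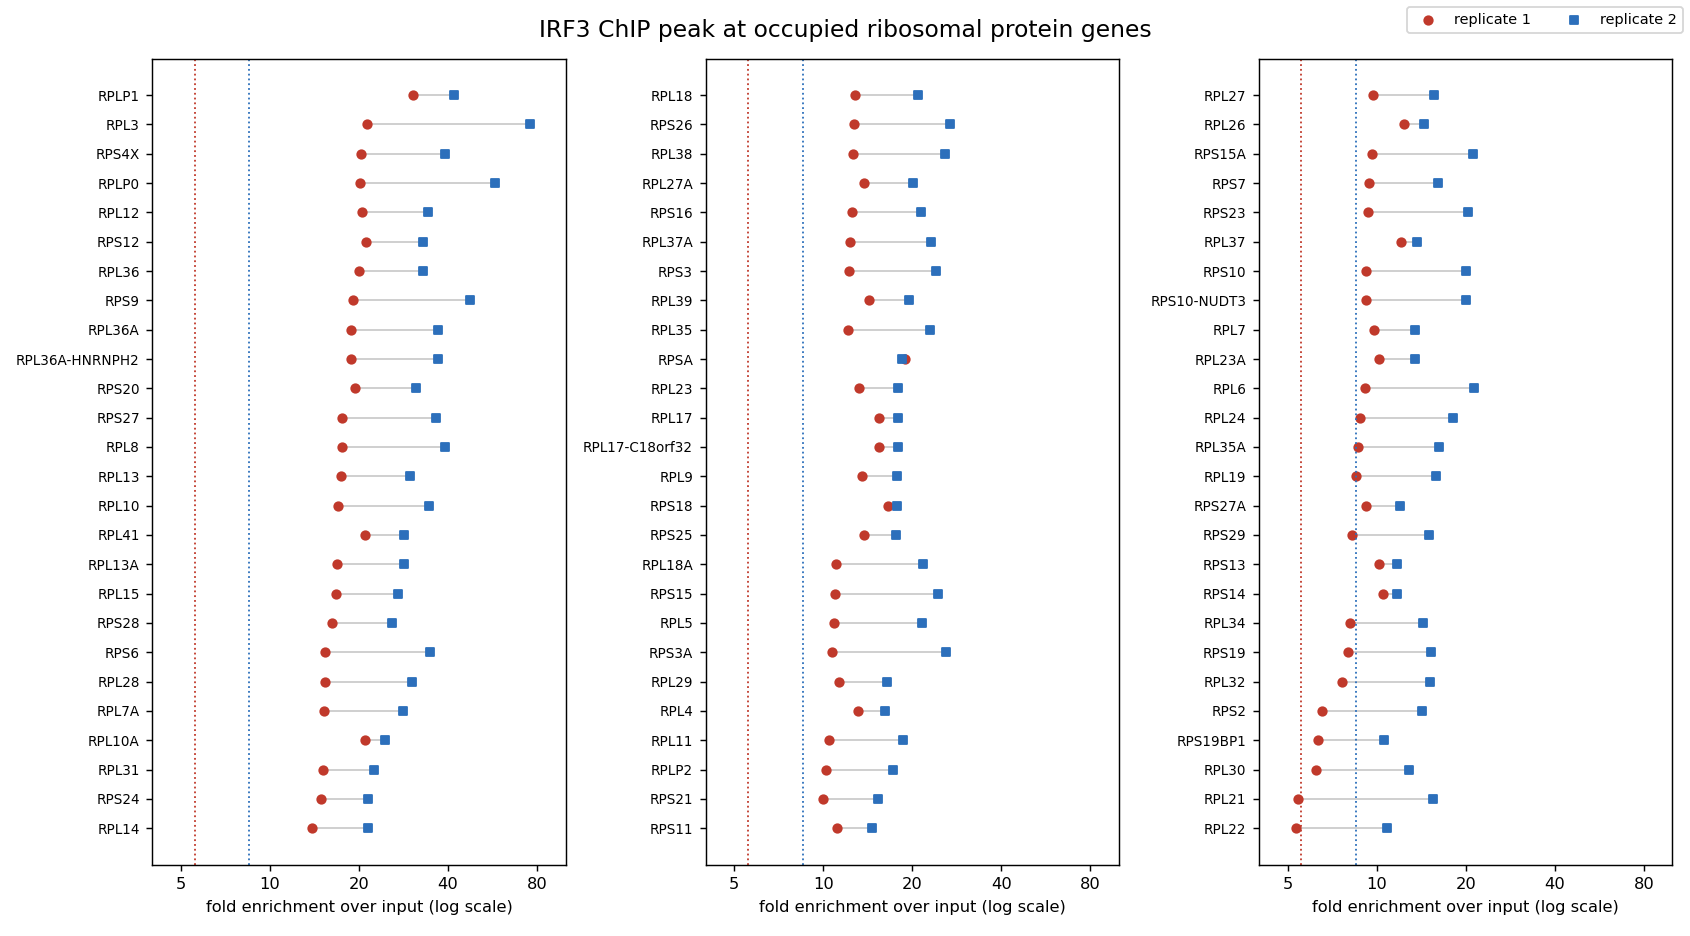
Fold enrichment over input (log axis) of the strongest peak at 78 of the 81 occupied genes in replicate 1 (circles) and replicate 2 (squares), ordered down and across by strength percentile; dotted lines are the medians of all occupied protein-coding genes, 5.56 and 8.51. All but RPL21 and RPL22 in replicate 1 lie to the right of the line for their replicate, from RPLP1 (30.4 and 41.9) to RPL22 (5.35 and 10.8).

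Genes of the large and small subunits had similar ranges of strength. The 46 large subunit genes had median fold enrichments of 12.9 (5.35 to 30.4) and 21.1 (10.8 to 75.5) and a median percentile of 95.4. For the 31 small subunit genes the medians were 12.2 (6.51 to 21.1) and 21.1 (11.7 to 47.3), with a median percentile of 94.7. The ranges overlap over most of their length.

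By place in the ribosome, the 4 genes of the stalk and its base had medians of 20.3 and 38.0. RPL5 and RPL11, which join 5S ribosomal RNA in the particle that can hold back MDM2, had closely similar values of 10.9 and 21.6 and of 10.4 and 18.6. Of the proteins that line the exit tunnel, RPL4 had 13.1 and 16.2, RPL17 15.4 and 17.9 and RPL39 14.3 and 19.5. The 5 genes at the tunnel rim (RPL19, RPL23A, RPL26, RPL31 and RPL35), where the signal recognition particle docks, ranged from 8.51 to 15.1 and from 13.5 to 22.9. At the messenger entry, RPS3 had 12.2 and 24.1, between RPS2 and RPS9. RPS6, the substrate of the S6 kinases, had 15.4 and 34.9. RPSA, at the messenger exit side, had 18.9 and 18.4.

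Of the genes mutated in Diamond-Blackfan anaemia, a failure of red cell production, 10 were listed, among them RPS19, RPL5 and RPL11. The list is partial, so its medians hold for these 10 genes and not for the disease genes as a group. Each was occupied, and the list had median fold enrichments of 10.6 and 19.3. RPS24 had 14.9 and 21.5, and RPS26 had 12.7 and 26.9. Lower values were those of RPL26 (12.4 and 14.5), RPS7 (9.39 and 16.1), RPS10 (9.21 and 19.998), RPL35A (8.62 and 16.2) and RPS19.

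Members kept much of their order between the replicates. The rank correlation of fold enrichment over the 81 genes was 0.80 (Spearman), and 0.76 over all 9978 occupied genes; genes of a pair of libraries share those libraries and are not replicates. Fold enrichment was higher in replicate 2 at 80 of 81 members (98.8%), against 90% of all occupied genes, and RPSA was the exception. The median log2 ratio of replicate 2 over replicate 1 was 0.78 at members and 0.62 at all occupied genes.

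A few members changed rank widely. Among all peaks of a list ranked by fold enrichment, RPL21 stood at 10308 in replicate 1 and 1368 in replicate 2, RPL22 at 10653 and 3727, RPL30 at 7072 and 2362, RPS2 at 6245 and 1750, and RPS19BP1 at 6781 and 3896. These 5 thus ranked lower in replicate 1 by fold enrichment. The opposite shift was smaller, with RPS14 at 1206 and 3057, RPS13 at 1369 and 3053, RPL37 at 743 and 1958, RPL26 at 673 and 1666, and RPS27A at 1993 and 2844. In all, 47 members ranked better in replicate 2 and 34 in replicate 1. At RPS2 pileup was also the higher in replicate 2, with 131 in replicate 1 and 222 in replicate 2. The pileup of RPL21 was 98 in both replicates, and that of RPL22 (143 and 135), RPL30 (84 and 79) and RPS19BP1 (157 and 112) was the higher in replicate 1, where their fold enrichment was the lower.

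**Figure D4:**
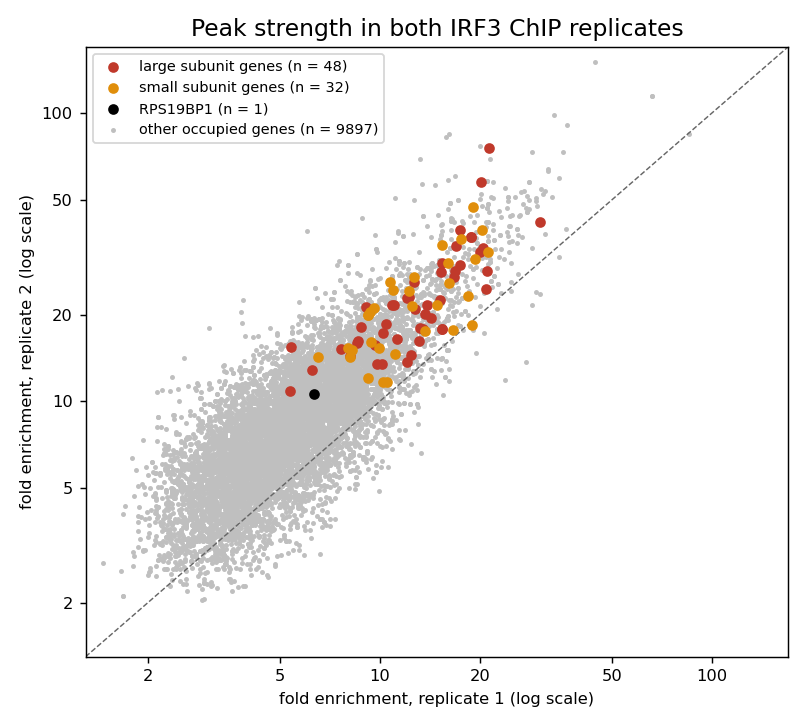
Fold enrichment in replicate 1 against replicate 2 (both axes logarithmic) at occupied genes: large subunit genes including 2 readthrough genes, small subunit genes including 1, RPS19BP1, and the 9897 other occupied genes; the dashed line marks equal values. The ribosomal protein genes lie toward the upper right and above the line, with RPSA the exception at 18.9 and 18.4.

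The summits sat at a nearly fixed place, just downstream of the start. Of the 64 occupied members with a promoter entry, which gives the strand, all 64 had their strongest peak at the start end of the gene and none at the other. Measured from the nearest annotated start of the same gene, the summit of replicate 1 lay a median of 57 bp downstream (quartiles 44.3 and 78) and that of replicate 2 lay 66 bp downstream (53.3 and 89.5). For all 8294 occupied genes with an entry the medians were 64 and 87 bp downstream, with quartiles of -182 and 126 and of -185 and 145, negative values being upstream. The members were thus less spread. All occupied genes were measured from a listed start, also where the strongest peak lay at the other end or far from any such start. Examples are ABL1 (-122274 and -122191 bp) and ARHGEF6 (102254 and 102276 bp). No comparison restricted to peaks at the start end is given here. A summit within 150 bp of a start was found in 58 of 64 members in each replicate (90.6%), against 53.8% and 49.8% of all occupied genes.

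**Figure D5:**
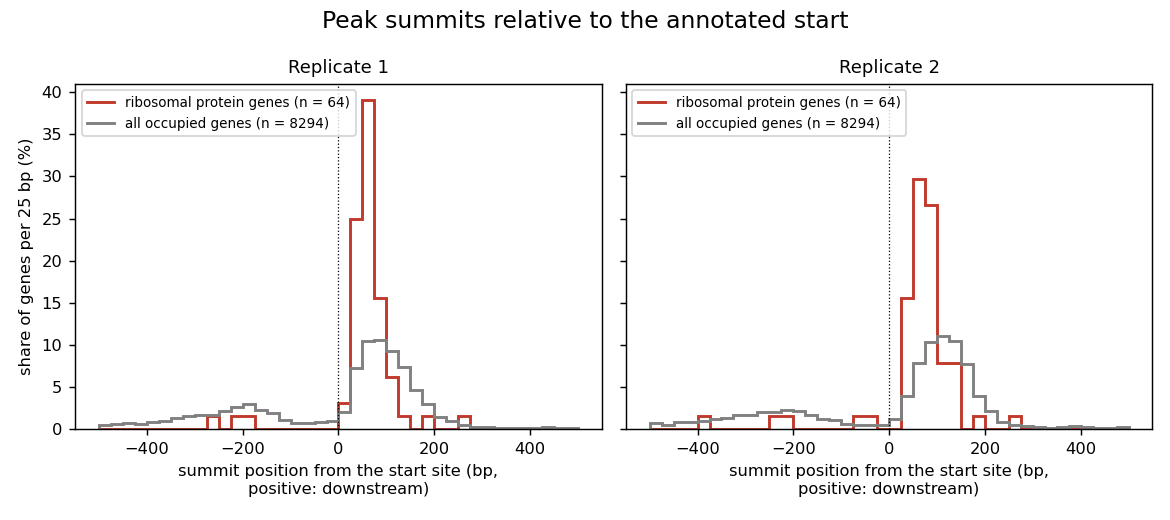
Position of the peak summit relative to the nearest annotated start of the gene (bp, positive downstream), as the share of genes in each 25 bp bin, for 64 ribosomal protein genes and 8294 occupied genes in each replicate; summits beyond the axis are not drawn. The ribosomal protein genes form a narrow peak with medians of 57 and 66 bp, and all occupied genes a lower and wider one.

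The replicates placed the summits of members close together. The distance between the summits of the replicates had a median of 20 bp at members and 36 bp at all occupied genes, and was at most 50 bp at 74 of 81 members (91.4%), against 61.1% of all occupied genes. The widest gap at a member was 109 bp. Median peak lengths were 1018 and 1083 bp at members, and 811 and 998 bp at all occupied genes.

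Some summits far from a gene end lay at an inner start. RPS27A, which encodes ubiquitin fused to a small subunit protein, had its summits 847 and 870 bp from the gene end, just inside the 1 kb limit, yet 62 and 85 bp downstream of another annotated start. RPL15 had 652 and 686 bp, and 65 and 99 bp from such a start. RPL7 was the member nearest the limit at 867 and 874 bp, with no promoter entry used here. At 5 kb no further member became occupied. Summits over 150 bp upstream were those of RPL27A (-185 and -223), RPS25 (-223 and -244) and RPS29 (-268 and -377), and RPL6 had its summits 34 and 40 bp from the gene end but at -7359 and -7353 bp from the nearest start in the promoter table.

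In 66 of the 81 occupied members each replicate had a single peak at the gene ends. Peaks at both ends in both replicates were found in RPL41, RPL4, RPL26 and RPS19BP1. The weaker end had fold enrichments of 5.73 and 10.1 in RPL41, 6.02 and 6.88 in RPL4, 4.56 and 5.36 in RPL26, and 6.30 and 9.81 in RPS19BP1. RPS19BP1 was nearly even between its ends while RPL41, RPL4 and RPL26 were stronger at the start.

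Ends of other protein-coding genes lay within 1 kb of the summit in 18 members, counting each readthrough gene. The partners included LRSAM1 at RPL12 (189 bp from the summit), BTK, a kinase of B cell receptor signalling, at RPL36A (272 bp), RAB13 at RPS27 (110 bp), MED22 at RPL7A (139 bp), PTPN11 at RPL6 (146 bp) and NDUFA7 at RPS28 (169 bp). The other gene was nearer than the member in 3 cases, TRAPPC4 at RPS25, CLHC1 at RPS27A and LRR1 at RPS29. Such a region cannot be assigned to either gene from the peak lists. The 17 ribosomal protein genes proper with such a neighbour had a median percentile of 94.94 and the 60 without 94.99. The readthrough genes share the region of RPS10, RPL17 and RPL36A, so their values are the same peaks counted again.

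Small nucleolar RNAs, which guide the modification of ribosomal RNA, are often made from introns of these genes. Of the 77 ribosomal protein genes proper, 29 had at least 1 inside the span in the gene table, 60 in all, among them RPL3, RPL4, RPL7A, RPL13A and RPL23A with 4 each. The median percentile was 95.02 in the 29 hosts and 94.90 in the 48 other genes. Median fold enrichments were 13.2 and 20.1 in hosts, and 12.4 and 21.2 in the others, so the order differed between the replicates.

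Ribosomal protein genes have many processed pseudogenes, copies of the spliced message that lack the promoter, and reads could be shared with them. Of 1967 ribosomal protein pseudogenes in the gene table, 33 (1.68%) were occupied by the same rule, with median fold enrichments of 4.60 and 4.88 and highest values of 8.74 and 13.9. Other pseudogenes were occupied in 566 of 14878 cases (3.80%). Over 5 kb from any protein-coding gene end, 21 of 1703 (1.23%) ribosomal protein pseudogenes and 2.91% of other pseudogenes were occupied. The sources used here do not say how reads matching several places were treated, and its part in the values was not tested.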

How the data were processed

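The data were peak lists of 2 IRF3 ChIP-seq libraries from MM1.S cells. Per the file headers, narrow peaks were called with MACS2 2.1.2 for each ChIP library against the input of the same number, at a q-value cutoff of 0.05 with all duplicates kept, and replicates were not pooled. The submitters' processing notes name MACS2 2.1.1, deepTools 3.3.1, SAMtools 1.2, Picard 2.6.0, BWA 0.7.15 and GRCh38. The deposited fold enrichment is a ratio of ChIP pileup to local input, and the deposited pileup is a signal. The deposited −log10 p and −log10 q had damaged column names and were told apart by their order and values. Fold enrichment depends on input depth and recovery, so levels are not compared between the libraries as binding.

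Peaks were assigned to gene ends (RefSeq gene table, GRCh38.p14) with Python 3.11.15, numpy 2.4.6, pandas 2.3.3 and scipy 1.17.1, after a check on simulated peaks. Peaks of the replicates had to overlap by at least 1 bp, and the strongest peak gave the values. Motifs were searched in the first promoter entry of each gene (300 bp). With 1 condition there was no contrast and no test was run. The members and lists were chosen with earlier results of these data known. Named genes are the 15 strongest and 10 weakest occupied members, all unoccupied ones, those with peaks at both ends, shared regions or large rank shifts, and genes named by role. RPSA2 was not taken, since the rule names RPSA. A few genes enter the counts and medians but are not reported here by name. Alternatives were other distances, overlaps, q, fold, single replicates, pileup and nearest genes.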

Additional observations from a re-analysis of the deposited data

How the results depend on the processing

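The share of occupied members was 94.0% within 500 bp and with a region given only to the nearest gene, 97.5% without the readthrough genes and RPS19BP1, and 97.6% within 5 kb, with an overlap of at least 50%, at a −log10 q of at least 10, at a fold enrichment of at least 5 and with either replicate alone. Without the Y chromosome genes it was 100% (81 of 81). The median strength percentile was 94.96 as reported, 94.0 by pileup, 94.4 within 5 kb and 94.5 to 94.9 with 1 replicate left out. The ratio of the members' median to that of all occupied genes was 2.27 in replicate 1 and 2.45 in replicate 2 for fold enrichment, and 2.47 and 2.51 for pileup. The median distance to a gene end was 63 to 81 bp with 1 replicate left out. Median fold enrichments stayed within the spread between replicates under each alternative run. Taking the nearest peak in place of the strongest changed 1 of 162 member values. No paired analysis was possible because the inputs had no peak list of their own and no test was made. With 2 libraries of 1 condition, spread between cultures was not measured.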

Other observations

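Genes that work with these proteins but fall outside the naming rule were listed too. Of the 10 partner genes listed, 9 were occupied. With values given for replicate 1 and then replicate 2, nucleolin (NCL) had fold enrichments of 17.9 and 31.7, the poly(A)-binding protein gene PABPC1 16.9 and 60.3, nucleophosmin (NPM1) 14.3 and 37.2, and HNRNPA1 14.1 and 29.0. RACK1, a scaffold on the small subunit, had 10.3 and 19.2 and TPT1 9.93 and 18.6. FAU, which encodes a ubiquitin-like protein fused to a ribosomal protein, had 6.22 and 8.18. FBL, which encodes the methyltransferase fibrillarin, had 4.83 and 8.79 and the lowest percentile of the occupied partners, 41.7.

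Of the 8 paralogues whose symbols end in L, L1 or L2, 6 were occupied. RPL22L1 had 11.8 and 19.4, against 5.35 and 10.8 at its paralogue RPL22, and it was the higher in both replicates. RPL36AL had 10.9 and 27.2, RPS27L 8.74 and 12.9, RPL7L1 8.99 and 11.7, RPL39L 6.68 and 9.08 and RPL3L, a form known from muscle, 5.93 and 7.996. RPL10L, a testis retrogene, and RPL26L1 had no peak within 1 kb in either replicate. These comparisons were chosen after the values were seen and were not tested.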
